A study of Mus musculus with 4 samples.

Results

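The genes followed here mark B cell precursors in perinatal mouse liver. They are Vpreb1, Igll1, Cd79a, Cd79b, Blnk, Rag1, Rag2, Ebf1 and Pax5. Members were taken by gene name from the array annotation, where these 9 of 36161 gene names had 13 of the 55681 non-control probes and 24 of the 59305 non-control spots. The study asked how the liver transcriptome of mice that are small at birth (microsomia, M) differs from that of controls (C) in each sex. Whole liver RNA was labelled with Cy3, a green dye, and hybridized to Agilent arrays read in 1 colour. The 4 groups, with 1 array each, were microsomic females (MF), control females (CF), microsomic males (MM) and control males (CM). The labels of all 4 groups give whole liver at embryonic day 20 of C57BL/6J mice, with no treatment and no transgene, whereas the methods of the study describe newborn C57BL/6N mice. Microsomia was natural, defined by a low weight for the sex, and the controls had a weight near the mean of the colony. Whether an array holds 1 animal or a pool is not given in the sources used here.

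The perinatal liver is a site of blood formation, and B cells develop there before the bone marrow takes over. A progenitor first turns on the transcription factors EBF1 and PAX5, cuts and joins the segments of its immunoglobulin heavy chain gene with the RAG1 and RAG2 recombinase, and then places the new heavy chain on the surface together with a surrogate light chain, made of the proteins of Vpreb1 and Igll1. The signal of this pre-B receptor passes through CD79A and CD79B and the adaptor BLNK. Once a pre-B cell has this receptor, it divides, silences the surrogate light chain genes and uses the recombinase again on the light chain genes, so that these 2 sets of genes mark overlapping but different steps.

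The sequences of 6 probes are shown because the values below turn on them. Each is the strand of the transcript, 5′ to 3′, and mm9 positions come from the annotation of the array. Capitals mark runs made of C and T, in windows of 5 bases with at least 3 C, since the removal of a trend of the signal with such windows was among the alternatives tried. The Igll1 probe (chr16:16861104-16861163, minus strand) and the brighter Rag2 probe (chr2:101470723-101470782, plus strand) hold no such window.
Igll1: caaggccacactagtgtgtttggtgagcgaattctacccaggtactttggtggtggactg
Rag2: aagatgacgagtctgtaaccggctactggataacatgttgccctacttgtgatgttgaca

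Cd79a has 2 probes that gave different sizes of change. The brighter one (chr7:25686823-25686882, plus strand) holds 8 windows of C and T in its 60 bases, 5 of them in the first 30 bases shown here. The dimmer one holds 2 and spans chr7:25684357-25684614 on the plus strand, 258 bases of genome for 60 bases of probe, so it crosses an intron.
Cd79a, brighter probe: CCTCCTCCCagatctgtcatggccacttaa
Cd79a, dimmer probe: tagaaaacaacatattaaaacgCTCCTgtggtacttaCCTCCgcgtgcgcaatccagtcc

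Pax5 also has 2 probes, of which only the first gave a signal that could be compared. It lies at chr4:44658421-44658480 on the minus strand, and the second spans chr4:44550354-44582908, 32555 bases, on the same strand and so crosses at least 1 intron.
Pax5, first probe: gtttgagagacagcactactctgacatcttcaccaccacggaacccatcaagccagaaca
Pax5, second probe: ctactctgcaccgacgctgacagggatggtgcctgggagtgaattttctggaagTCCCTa

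All values below are log2 processed signals minus the 75th percentile of the array, so that 0 is the level of a spot brighter than 75% of the non-control spots. For each gene the brightest probe was used. It was compared where it was well above background, by the flag of the scanner software, on at least 1 array of the pair, and counted where it differed by more than 1.5-fold, the threshold of the methods. With 1 array per group no difference within a sex carries an error or a p-value. The spots of one probe on an array give the technical part only. This was read from 253 probes with 8 to 10 usable spots that were well above background on every array. In them the difference MF minus CF at single spots had a median SD of 0.32 within a probe, and MM minus CM one of 0.35. On the slide, M and C arrays were in different columns and the sexes in different rows, so that M or C and the column cannot be told apart.

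The labels of the 4 arrays fitted the sex genes that were measured. The share of spots well above background, controls left out, was 56.1% to 65.3%, and the 75th percentile was 628 to 925. Ddx3y, Eif2s3y and Uty were well above background on the MM and CM arrays alone, and Xist on the MF and CF arrays alone. Kdm5d, also among the sex genes listed, was not well above background on any array. Genes of hepatocytes were well above background on every array (12 of 12), as were 12 of the 13 listed markers of B cell precursors, all but Pax5. The MF array stood apart by intestinal genes: 9 of 10 were over 1.5-fold higher than on CF, with a median of 3.61, and Cdx2 and Cdh17 were well above background on MF alone. The summed level of this list was 121 on MF against 19.9 on CF, and 108 on MM against 18.4 on CM. Of the 8 compared in MM vs CM, however, 3 were over 1.5-fold higher and 2 lower, with a median of 0.39. Cdx1 is among the 8 but gave no difference and is not part of this median. The highest levels on MM were those of Apoa4 (6.10) and Fabp2 (4.98), while Vil1 and Lgals4 were lower than on CM. On MF, 10 of 15 granulocyte genes and 12 of 15 macrophage and dendritic cell genes were also over 1.5-fold higher than on CF. Their medians were 0.84 and 0.88, and 19.9% of all genes were over 1.5-fold higher. In MM vs CM the medians of these 2 lists were -0.08 and 0.06. Erythroid genes had medians of -0.42 in females and -0.25 in males, and hepatocyte genes 0.18 and -0.59. The part of these other cells in the values below was not tested, and in whole liver, fewer cells of a type and less RNA per cell cannot be told apart.

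Of the 9 genes, 5 were past 1.5-fold in MF vs CF. Cd79a, Igll1 and Pax5 were higher on MF and Rag1 and Rag2 were lower. Among all 25536 genes compared in this pair, 19.9% were higher and 21% were lower, so that 3 and 2 of 9 are not far from the background. These shares include genes well above background on only 1 array of the pair, whereas 8 of the 9 genes were so on every array. In MM vs CM, 4 of the 9 were past 1.5-fold, with Rag1 and Rag2 higher and Igll1 and Vpreb1 lower, where 17.7% of 26313 genes were higher and 23.1% were lower. None was past 1.5-fold the same way in both sexes (0 of 9), while 3.18% of 23966 genes were higher in both and 3.8% were lower in both. In opposite ways, 3 were past it. Igll1 was higher on MF and lower on MM, as were 5.81% of all genes, and Rag1 and Rag2 were lower on MF and higher on MM, as were 4.04%.

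**Figure D1:**
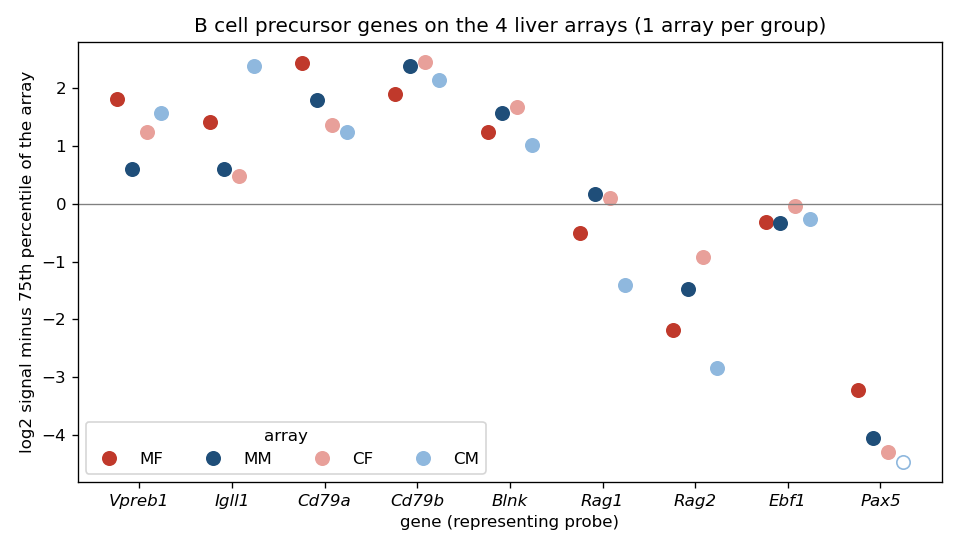
Level of the 9 genes on the 4 arrays, as log2 signal minus the 75th percentile of the array (vertical axis), 1 point per array and gene, an open point where the probe was not well above background. The CM array is the lowest of the 4 for 5 genes, Rag1 and Rag2 among them, and the highest for Igll1.

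The surrogate light chain genes differed between M and C in opposite ways in the sexes. Igll1 (lambda 5), the constant-like part of the surrogate light chain, was at 1.42 on MF and 0.49 on CF, and at 0.59 on MM and 2.38 on CM. The CM array was highest, and the CF and MM arrays were close together. Igll1 was 1.91-fold higher on MF than on CF (log2 0.93) and 3.46-fold lower on MM than on CM (log2 -1.79). The difference between the controls, CM minus CF, was 1.90 and thus as large as any difference of M and C. Vpreb1, the variable-like part, was at 1.80 on MF and 1.23 on CF, and at 0.59 on MM and 1.57 on CM. Here MM stood lowest and the other 3 arrays lay within 0.57 of each other. Vpreb1 was 1.97-fold lower on MM than on CM (log2 -0.98) and 1.49-fold higher on MF than on CF (log2 0.57), just under the threshold. Vpreb2, a close relative of Vpreb1 in sequence whose probe may share signal with it, had differences of 0.90 and -0.39 in females and males. Vpreb3, a more distant relative, gave -0.01 and 0.65.

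The recombinase genes showed the reverse. Rag1 was at -0.50 on MF and 0.10 on CF, and at 0.17 on MM and -1.40 on CM, each the mean of 2 spots. The CM array was lowest, and the MM and CF arrays were alike. It was 2.97-fold higher on MM than on CM (log2 1.57) and 1.51-fold lower on MF than on CF (log2 -0.60). The 2 spots gave 1.10 and 2.04 for MM minus CM but -1.15 and -0.04 for MF minus CF, so that the female difference came from 1 spot. Rag2 was at -2.18 on MF and -0.92 on CF, and at -1.48 on MM and -2.85 on CM. The order of the arrays resembled that of Rag1, with CM lowest and MF next. Rag2 was 2.41-fold lower on MF than on CF (log2 -1.27) and 2.59-fold higher on MM than on CM (log2 1.37). For other probes of this brightness, single spots had a median technical SD of 0.32 in the female pair and 0.37 in the male pair. The 2 spots of Rag1 lay further apart than that, and the brighter Rag2 probe had 1 spot per array. Variation between arrays or animals is not part of these SDs. CM minus CF was -1.50 for Rag1 and -1.93 for Rag2, again as large as a difference of M and C.

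Each recombinase gene had a second, dim probe that could not carry this comparison. The second Rag1 probe (chr2:101481051-101481110) was well above background on MM alone, where it was at least 1.10-fold higher than on CM. The second Rag2 probe (chr2:101472445-101472504) was printed at 10 spots and was well above background at 4 of them on MF and 1 on CF, and at 3 on MM and 0 on CM. Its spots ranged from -7.29 to -4.55 on MF and from -7.06 to -4.08 on MM. On CF they ranged from -6.46 to -4.97 and on CM from -6.54 to -4.67. The ranges of the 4 arrays overlapped, and no difference was taken.

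**Figure D2:**
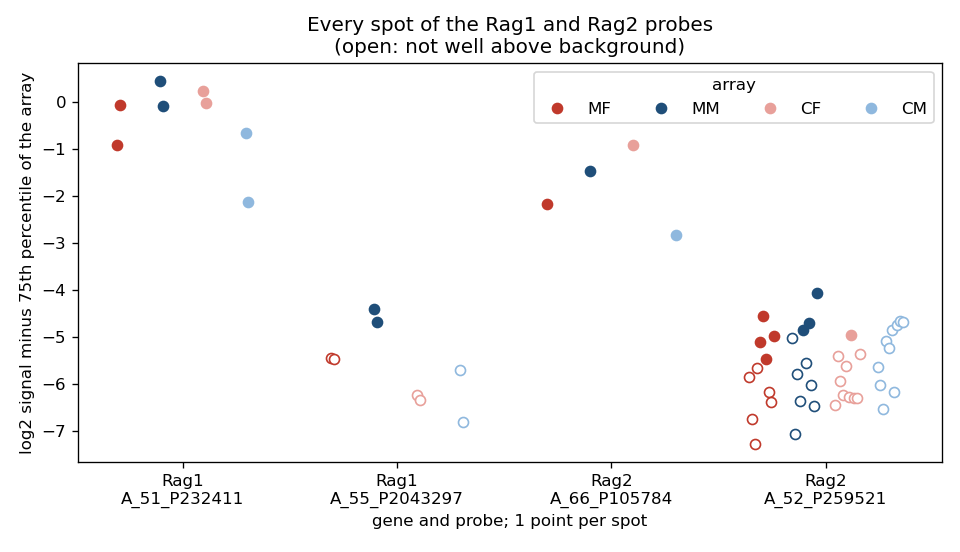
Every spot of the 4 probes of Rag1 and Rag2 (horizontal axis) on the 4 arrays, as log2 signal minus the 75th percentile of the array, filled where the spot was well above background. The lowest spot of each bright probe is on the CM array, at -2.14 for Rag1 and -2.85 for Rag2, and the spots of the second probes lie at -4.08 or below.

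Of the genes of the receptor's signalling chain, Cd79a was past 1.5-fold in females and Cd79b and Blnk in neither sex. Cd79a, which codes for the alpha chain of the signalling pair, was at 2.43 on MF and 1.36 on CF, and at 1.80 on MM and 1.24 on CM. Both M arrays were above both C arrays. Cd79a was 2.11-fold higher on MF than on CF (log2 1.07) and 1.47-fold higher on MM than on CM (log2 0.56). Its dimmer probe, at -0.19, -0.34, 0.03 and -0.44 in the same order of arrays, gave the same direction with smaller differences, 0.15 in females and 0.46 in males. Cd79b, which codes for the beta chain, was at 1.89 on MF and 2.44 on CF, and at 2.38 on MM and 2.13 on CM. The 4 arrays lay within 0.55 of each other and the differences, -0.55 in females and 0.24 in males, were under 1.5-fold. Blnk was at 1.24 on MF and 1.67 on CF, and at 1.57 on MM and 1.02 on CM. Its differences of -0.43 and 0.55 had the signs of those of Rag1 and Rag2 and were under 1.5-fold.

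Of the transcription factors, Ebf1, which starts the B cell program, had the smallest range over the 4 arrays of the representing probes, 0.30. It was at -0.32 on MF and -0.04 on CF, and at -0.33 on MM and -0.26 on CM, and differed by -0.28 in females and -0.07 in males. Pax5, which fixes the B cell fate, was at -3.22 on MF, -4.05 on MM and -4.30 on CF by its first probe, and not well above background on CM, where it measured -4.46. It was 2.10-fold higher on MF than on CF (log2 1.07). On MM it was 1.34-fold higher than its reading on CM (log2 0.42), which is no firm bound. Over the processing settings that gave a value, this male difference ran from 0.28 to 0.98. Single spots of such dim probes varied more, with a median SD of 0.72 for MF minus CF and 0.84 for MM minus CM. These dim probes, unlike the brighter ones, were taken whether or not they were well above background. The second Pax5 probe was not well above background on any array.

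**Figure D3:**
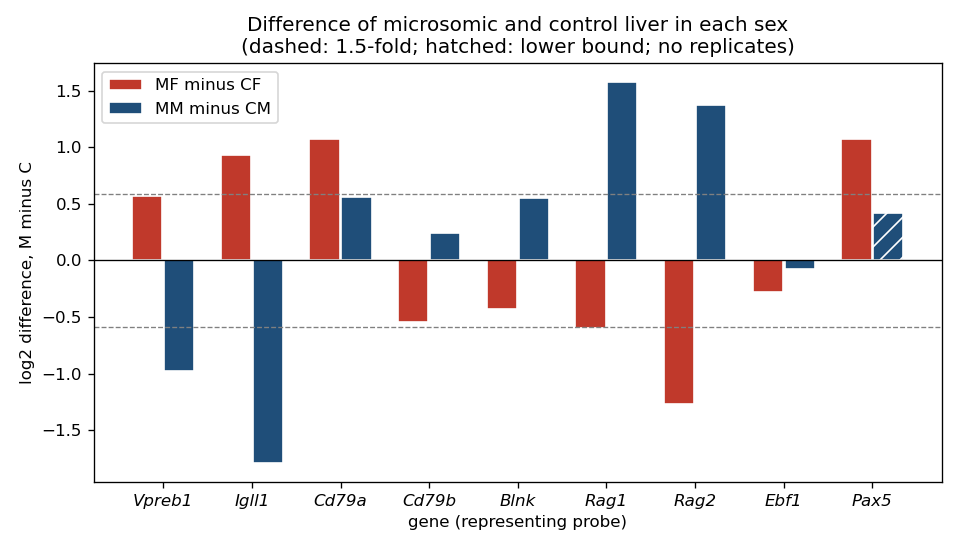
Difference of M and C in log2 for each gene (vertical axis), females in red (MF minus CF) and males in blue (MM minus CM), 1 array each and no error. Dashed lines mark 1.5-fold. The hatched bar of Pax5, drawn as a lower bound, rests on a CM reading that was not well above background. Vpreb1 and Igll1 are higher on MF and lower on MM, Rag1 and Rag2 the other way round, and Cd79a and Pax5 are higher in M in both sexes.

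The median difference of the 9 genes was -0.28 in MF vs CF and 0.42 in MM vs CM, against -0.06 and -0.01 over all genes compared. Their median absolute difference was 0.60 and 0.56, against 0.48 and 0.49 over all genes. A change common to both sexes was tested with limma, with a term for M or C and one for sex, in the 19298 genes whose probe was well above background on every array, and with 1 residual degree of freedom. None of the 8 genes of the set that entered this fit passed an adjusted p of 0.05 (Pax5 did not enter), and none had an unadjusted p under 0.05. Over all genes 0% passed (0 genes), and 851 genes, 4.41%, had an unadjusted p under 0.05. The mean difference of M and C over both sexes was 0.82 with an SE of 0.42 for Cd79a and lay between -0.43 and 0.49 for the other 7, with SEs of 0.41 to 0.65. In simulated data for this fit, 93 of 200 genes changed by 2 on the log2 scale were found and 200 of 200 changed by 4. Unchanged genes called falsely numbered 4 and 9, and smaller changes were not simulated. The simulation gave every gene the same SD, unlike the data, so that these shares need not hold for the real fit. Whether the difference of M and C differs between the sexes could not be tested, since such a term leaves no residual.

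Among these genes are 2 pairs of neighbours. Vpreb1 and Igll1 lie next to each other on chromosome 16, 4.42 kb apart with 0 genes between them, and Rag1 and Rag2 likewise on chromosome 2, 5.72 kb apart (RefSeq, GRCm38.p6). To compare patterns, the values of the 8 genes that could be measured on every array were centred on their own mean over the 4 arrays, and the Euclidean distance between genes was taken. Of the 28 pairs, Cd79b and Blnk were closest (0.35), and Rag1 and Rag2 ranked 4 with 0.53. Vpreb1 and Igll1 ranked 12 with 1.15. The farthest pair was Igll1 and Rag2 with 2.95. These distances rest on 4 arrays and carry no test. The genes outside the set nearest to its median profile were 2 long non-coding transcripts known by position only, on chromosomes 8 and 5, followed by Gp6, Ppp6c and Map2k5, at distances of 0.04 to 0.06 over the 4 arrays. None of these is on the lists of B lineage genes used here. The 8 genes were themselves 0.18 (Blnk) to 1.86 (Igll1) from that profile, which thus describes few of them.

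The 250 bases before the transcription start are shown for these 4 neighbouring genes, from RefSeq on GRCm38.p6, because the genes of each pair differed in the same direction. Capitals mark 3 motifs searched on both strands. The first, CCCNNGGG, is a core of the sites that EBF1 binds. The second is the E-box CAGCTG, a form that E proteins such as TCF3 bind. The third is the E-box CACCTG, which reads as CAGGTG from the other strand. None of the matches in the windows of the 9 genes overlap.
Vpreb1, chr16:16869256-16869505, minus strand: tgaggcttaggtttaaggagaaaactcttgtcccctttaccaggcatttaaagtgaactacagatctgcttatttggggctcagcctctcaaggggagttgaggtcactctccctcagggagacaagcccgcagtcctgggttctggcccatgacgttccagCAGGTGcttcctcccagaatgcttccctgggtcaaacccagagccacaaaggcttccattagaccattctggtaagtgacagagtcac
Igll1, chr16:16863986-16864235, minus strand: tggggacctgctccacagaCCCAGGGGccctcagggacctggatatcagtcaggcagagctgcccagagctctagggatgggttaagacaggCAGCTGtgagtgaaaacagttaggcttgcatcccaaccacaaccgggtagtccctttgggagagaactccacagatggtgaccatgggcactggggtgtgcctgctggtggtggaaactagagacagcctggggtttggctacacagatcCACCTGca
Rag1, chr2:101649533-101649782, minus strand: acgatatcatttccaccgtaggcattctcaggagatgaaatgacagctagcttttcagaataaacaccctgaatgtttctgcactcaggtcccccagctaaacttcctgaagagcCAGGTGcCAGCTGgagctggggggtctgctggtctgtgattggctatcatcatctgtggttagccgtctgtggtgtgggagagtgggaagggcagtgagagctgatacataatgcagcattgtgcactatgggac
Rag2, chr2:101624462-101624711, plus strand: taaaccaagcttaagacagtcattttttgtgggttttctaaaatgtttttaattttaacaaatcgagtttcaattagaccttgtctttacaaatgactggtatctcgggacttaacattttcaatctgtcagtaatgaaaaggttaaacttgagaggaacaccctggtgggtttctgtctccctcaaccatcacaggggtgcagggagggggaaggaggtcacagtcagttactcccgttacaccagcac

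Igll1 held 1 match of each of the 3 motifs, Vpreb1 held 1 E-box of the form CAGGTG, Rag1 held 2 E-boxes separated by a single base, and the Rag2 window held none of these letters. A window was at hand for 8 of the 9 genes, Ebf1 with 2 windows, and 5 genes had at least 1 match. Among 32841 windows of the same length, 11.8% held CCCNNGGG, 13.0% held CAGCTG, 17.2% held CACCTG on either strand, and 35.9% held any of them.

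The wider B lineage was read from 6 lists of 74 genes, of which 70 had a usable probe. In MF vs CF, 8 of 67 were over 1.5-fold higher and 10 lower, with a median of -0.15, where 19.9% and 21% of all genes were. In MM vs CM, 16 of 69 were higher and 8 lower, with a median of 0.21, where 17.7% and 23.1% of all genes were. The same shares of all genes stand beside the counts of the single lists below. Bst1, a surface enzyme of stromal cells and B cell precursors, was past 1.5-fold in both sexes the same way, 2.24-fold higher on MF and 2.15-fold higher on MM. Fyn, a kinase of the Src family, was 1.51-fold and 1.67-fold lower. Past 1.5-fold in opposite ways were Ikzf3, Lef1, Id2 and Ciita, 4 genes of the 67 compared in both sexes. Over all genes, 3.18% were higher in both sexes and 3.8% lower in both. Another 5.81% were higher on MF and lower on MM, and 4.04% the other way round. Of 12 recombination and repair genes, 0 were over 1.5-fold higher and 3 lower on MF, and 2 were higher and 0 lower on MM, with medians of -0.42 and 0.42. Dntt, which adds bases at the joints that the recombinase leaves, was at -2.48 on MF and -1.97 on CF, and at -1.37 on MM and -3.24 on CM. The CM array was again lowest, and Dntt differed by -0.50 in females and by 1.87 in males.

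Of 6 growth factor and chemokine receptors, 0 were past 1.5-fold on MF and 1 was higher on MM, with medians of 0.07 and 0.34. That receptor is Il7r, for the main growth factor of mouse B cell precursors. Il7r was at -0.35 on MF and 0.09 on CF, and at -0.45 on MM and -1.80 on CM. The MF, MM and CF arrays lay together and CM stood well below them, so that Il7r was 2.55-fold higher on MM than on CM (log2 1.35) and differed by -0.44 in females. Of 5 ligands and niche factors compared, 1 was lower in each pair and 0 were higher, with medians of -0.40 and -0.23. Il7, the ligand of Il7r, was dim and not well above background on CF. It was 1.18-fold higher on MF than its reading on CF, and differed by -0.34 in males. Cxcl12, a chemokine that holds precursors in their niche, differed by -0.73 and 0.55. The receptors Kit and Flt3 of earlier progenitors differed by 0.11 in females, both of them, and by 0.38 and -0.35 in males.

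Of 18 transcription factors of the lineage, 3 were higher and 4 lower on MF, and 3 were higher and 2 lower on MM, with medians of -0.13 and 0.12. Tcf3, whose E proteins act upstream of Ebf1, differed by 0.24 and -0.07. Ikzf1 differed by -0.09 and 0.30 and Spi1, found under its older name Sfpi1, by 0.29 and -0.29. Foxo1, which turns on the Rag genes in precursors, was 1.58-fold higher on MF (log2 0.66) and differed by -0.24 in males, which is the other direction than Rag1 and Rag2 in each sex. Irf4, which takes part in the step from pre-B receptor to light chain, differed by -0.56 and 0.32, and Pou2af1 by -0.38 and 0.09.

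Of 17 genes for co-receptors and signalling, 4 were higher and 2 lower on MF, and 4 were higher and 3 lower on MM, with medians of -0.01 and -0.26. Cd22 differed by 0.43 and -0.65, and Cd72 by 0.16 and -0.35. The kinases Btk and Blk differed by less than 1.5-fold in both sexes, while Lyn was 2.27-fold higher on MM (log2 1.18) and differed by 0.23 in females. Of the genes of mature B cells, 1 of 9 was higher and 0 lower on MF, and 6 of 11 were higher and 2 lower on MM. Igj is among the 11 but gave no difference. Ms4a1 (CD20) differed by -0.40 and 1.48, and Cr2 (CD21) by 0.22 and -2.28. Of the T and NK cell list, 3 of 13 were higher and 2 lower on MF, and 0 of 13 were higher and 4 lower on MM, with medians of -0.22 and -0.27. Ncr1 is among the 13 of the male pair but gave no difference there.

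**Figure D4:**
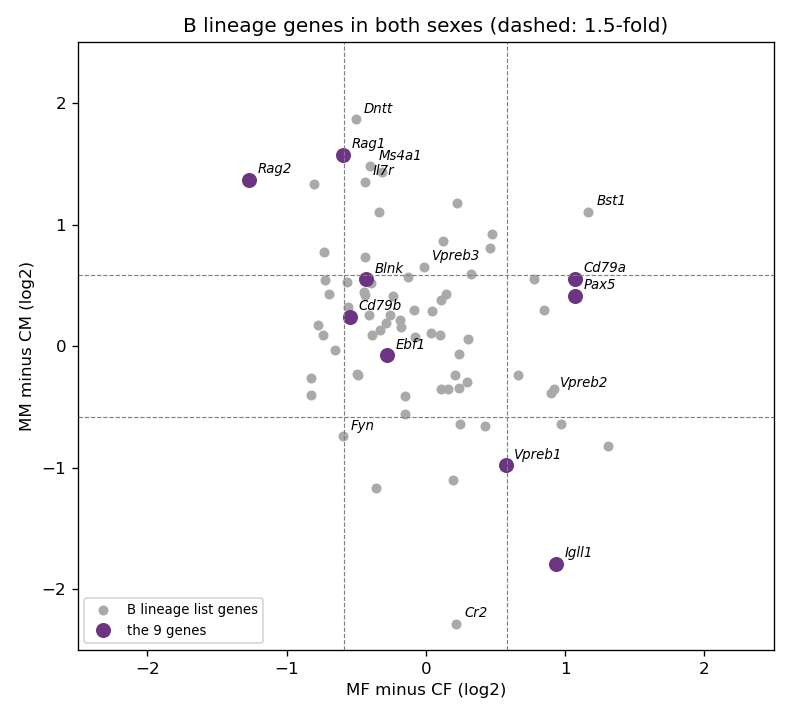
Difference MF minus CF (horizontal axis) against MM minus CM (vertical axis), both in log2, for the 9 genes (purple) and the B lineage list genes (grey), 1 point per gene, with dashed lines at 1.5-fold. Rag1, Rag2, Dntt and Il7r lie at the upper left, Igll1 and Vpreb1 at the lower right, and Bst1 alone is past both lines at the upper right.

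The differences depended on the scaling to a different extent from gene to gene. Igll1, Vpreb1, Rag1, Rag2, Cd79b and Pax5 kept their direction in both sexes in every setting that gave a value. For Igll1 in males the values ran from -1.86 to -1.04 and for Rag2 from 1.27 to 1.93. The female difference of Rag1, from -0.60 to -0.19, was past 1.5-fold in 4 of 10 settings. Those were the reported setting and the ones that left the value unchanged. Every setting that changed this value brought it under 1.5-fold. Cd79a in males ran from -0.52 to 1.12, with the negative value under normexp background correction and quantile normalization.

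**Figure D5:**
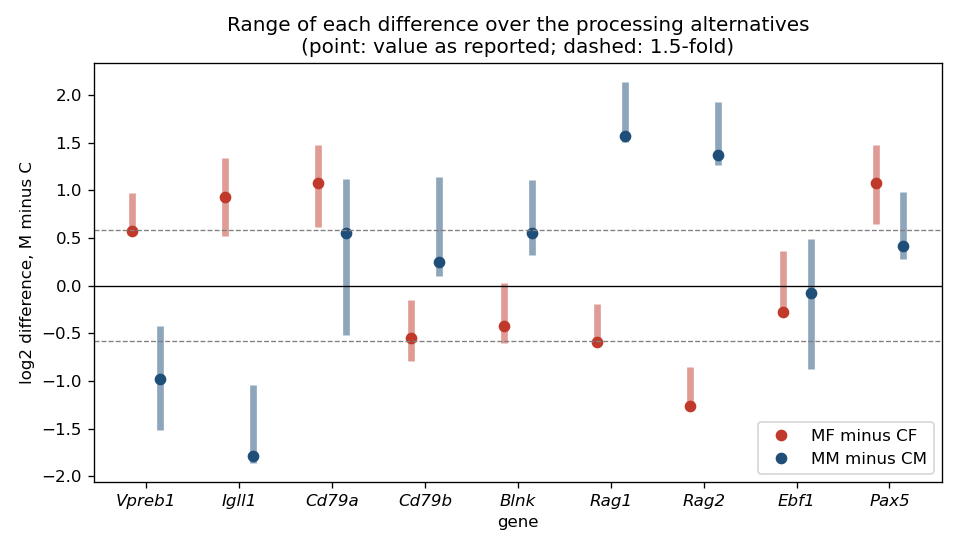
Range of each difference of M and C in log2 over the processing settings (bars) with the value as reported (points), females in red and males in blue; dashed lines mark 1.5-fold. The bars of Igll1, Rag1 and Rag2 stay on one side of 0 in each sex, and those of Ebf1 cross it.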

How the data were processed

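The authors hybridized Cy3-labelled liver RNA to Agilent SurePrint G3 mouse arrays and read them with Agilent Feature Extraction 10.7.3.1. The deposited values are its processed signal, an intensity on a linear scale with a fitted background subtracted and not normalized between arrays. The value table deposited by the authors holds the same intensities. From these, log2 values were scaled by subtracting each array's 75th percentile over non-control spots. The 1754 spots that the software marked as outliers on some array were dropped from all, repeated spots were averaged, and the brightest probe stood for its gene. A probe was taken as well above background where most of its spots were. Where 1 array of a pair was not well above background, the lowest signal well above background there (log2 -5.98 on MF and -5.48 on CF, -5.83 on MM and -4.68 on CM) gave a lower bound. Where the probe's own reading was higher, it was used instead, and the fold is then no firm bound. Where the bright array did not exceed the value used, the gene counted as compared but had no difference. Such genes entered no median, and they lower the shares of all genes called. limma 3.58.1 (R 4.3.3) with Benjamini-Hochberg adjustment modelled the 4 arrays with a term for M or C and a term for sex, and was tested on simulated data. With 1 array per group, the number of arrays limits the precision. Probe positions are on mm9, and RefSeq windows on GRCm38.p6.

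The genes named are all 9 genes with every probe, 24 fixed genes of the B lineage lists (Ighm and Syk were not found by name, and 1 is not reported here), other list genes past 1.5-fold the same way in both sexes, and the 5 nearest in pattern. The genes and lists were chosen with earlier results of these data known. Alternatives were other scalings, filters, probe rules, thresholds and limma models, and, chosen after seeing the data, the removal of trends with position on the array and with C and T content. The methods name several replicate experiments per group, and 1 array per group was analysed here.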

Additional observations from a re-analysis of the deposited data

Results flagged for a closer look

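Igll1, Rag1 and Rag2 were past 1.5-fold in opposite ways in the sexes, with 1 array per group, and the difference between the sexes was not tested. Igll1 differed by 0.93 in MF vs CF and by -1.79 in MM vs CM. Rag1 differed by -0.60 and 1.57, and Rag2 by -1.27 and 1.37. The female difference of Rag1 was under 1.5-fold in every processing setting that changed its value. The CM array held the highest value of the 4 arrays for Igll1 and the lowest for Rag1 and Rag2. CM minus CF was 1.90 for Igll1, -1.50 for Rag1 and -1.93 for Rag2, and MM minus MF was -0.83, 0.67 and 0.71.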

How the results depend on the processing

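Of the 173 differences of single genes recomputed under 10 alternatives, 140 moved by less than the median SD between single spots and 33 moved by more. Part of the 140 could not move. Dropping the filter on dim probes, asking for both arrays well above background and keeping flagged spots returned the reported value wherever they gave one. Averaging the probes likewise changed nothing for genes with a single probe. No difference past 1.5-fold changed sign. The number of genes past 1.5-fold in MF vs CF, 5 as reported, was 2 when all probes of a gene were averaged and 3 with a 2-fold threshold. With averaged probes, Pax5, Rag1 and Rag2 gave no value in this pair, and Cd79a and Igll1 stayed past 1.5-fold. In MM vs CM, 4 as reported, it was 7 after median centring of the arrays and 7 with unscaled deposited values. The number past 1.5-fold the same way in both sexes, 0 as reported, was 2 with median centring, 1 with quantile normalization, 2 with the deposited values, 1 with the trend with position on the array removed and 1 with the trend with C and T content removed. Centring on the median moved the median over all genes in MM vs CM from -0.01 to 0.21, and leaving out the scaling moved it to 0.52, so that the counts shift with the scale. Cd79a in males, 0.56 as reported, was 1.12 with the C and T trend removed and -0.52 under normexp and quantile normalization, and the cause was not tested. In limma, 0 of the B cell precursor genes passed under its 12 alternatives. Over all genes the count, 0 as reported, was 9 with the deposited values without scaling. The threshold of the methods was applied to the unadjusted p together with 1.5-fold, so its count of 163 of 19298 genes is of another kind. The smallest adjusted p in that setting was 0.966. No paired analysis was possible because each group has 1 array, and none could be left out. The number of arrays, and for Pax5 the signal near background, limit these values.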
